A study of Mus musculus with 2 samples.

Results

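Conventional dendritic cells of mouse pancreatic islets, cycling ones among them, were described here from single-cell RNA counts and 2 surface antibody counts of the same cells. A barcode was a member when it had at least 200 genes, at most 10% mitochondrial counts, at least 5000 RNA counts, under 2000 counts per 1000000 RNA counts (CPM) of the complement genes C1qa, C1qb and C1qc together, at most 1 count of Cd3e and Cd79a together, and at least 3 counts summed over Flt3, Zbtb46, Cd209a, Dpp4, Xcr1, Clec9a and Ccr7. This rule found 93 of the 2237 barcodes, which is 4.20% of the 2215 barcodes that passed the gene and mitochondrial limits (95% exact interval 3.40 to 5.12%). The members were thus chosen by the RNA counts of these 7 genes, of the C1q genes and of Cd3e and Cd79a, whose values are given only as a description. Every count is of unique molecular identifiers (UMIs), and CPM of a group is taken from the UMIs summed over its cells. All intervals are 95% intervals of counting error only, because the cells came from 1 sample and no difference between cells could be tested against a replicate.

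The study pooled the islets of 6 to 8 male C57BL/6J mice of genotype WT (the design text writes myeloid WT), sorted live cells that were negative for DAPI and Epcam and positive for CD45, and stained them with barcoded antibodies against CD9 and CD206. There was no treatment, time or second genotype in the files used here, and none of the sources used here gives the age of the mice. Its title concerns an antioxidant program of macrophages resident in the islet. The members were therefore set against the macrophages of the same suspension, 1699 barcodes with the same limits but at least 2000 CPM of C1q genes. As a further comparison, 72 T cells with at least 2 Cd3e UMIs were used. No limit on MHC class II or dendritic cell genes was set for them. Their median of MHC class II genes was 963 CPM, but the highest T cell had 43118 CPM. For macrophage genes without C1q these values were 458 and 9984 CPM. Whether such barcodes hold RNA of more than 1 cell was not tested. The members had a median of 23665 RNA UMIs per cell, macrophages 20894 and T cells 9771, so a share of T cells with a UMI is taken at a lower depth.

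Conventional dendritic cells arise from Flt3-dependent precursors, take up antigen in tissues and present it to T cells on MHC class II, and on MHC class I for antigens taken up from outside. Type 1 cells (cDC1) depend on Irf8 and Batf3, carry Xcr1 and Clec9a, and are known for presenting material of dead cells to CD8 T cells; type 2 cells (cDC2) depend more on Irf4 and carry lectins such as Cd209a and Mgl2. On maturation both types gain Ccr7, which guides them along lymphatic vessels to lymph nodes. In islets they are a minor population beside the resident macrophages, which also carry MHC class II.

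The label held for only part of the members. The 18 listed genes of MHC class II presentation, which dendritic cells share with macrophages, split the 93 members into 57 with at least 4612 CPM and 36 with at most 1282 CPM, a limit of 2000 CPM set after the data had been seen. The 57 are 61.3% of the members (50.6 to 71.2%). All 57 carried Ptprc, which encodes CD45, with 4 to 95 UMIs per cell and a median of 18, and their median depth was 24257 RNA UMIs. Of the 57, 53 had at least 20000 CPM of class II genes and 4 had less.

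The 36 members without class II RNA carried the genes of other cells. In 22 of them the 13 endocrine genes, the hormones among them, took 16618 to 673347 CPM, against 295 to 7285 CPM in the 57. These 22 met the gene sum through Dpp4, a cell surface peptidase that is not particular to dendritic cells: each had at least 3 Dpp4 UMIs, and Flt3, Cd209a, Xcr1, Clec9a and Ccr7 had 0 UMIs in all 22. In 5 others, which met it through 4 to 9 UMIs of the transcription factor gene Zbtb46, Pecam1 stood at 18 to 90 UMIs and Cdh5 at 11 to 61 UMIs per cell, both genes of endothelium, where Ptprc had 0 UMIs. The remaining 9 held 22 UMIs of Gata3 and 24 of Ncr1, genes of lymphoid cells, each in 6 of the 9, against 1 UMI of Gata3 and 0 of Ncr1 in the 22 endocrine-rich members. Flt3 had 0 UMIs in these 9. Neither class II genes nor these markers were part of the rule. The plot of class II against endocrine RNA shows the separation, and results are given below for the 57 members with class II RNA, with counts for all 93 beside the main ones.

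**Figure D1:**
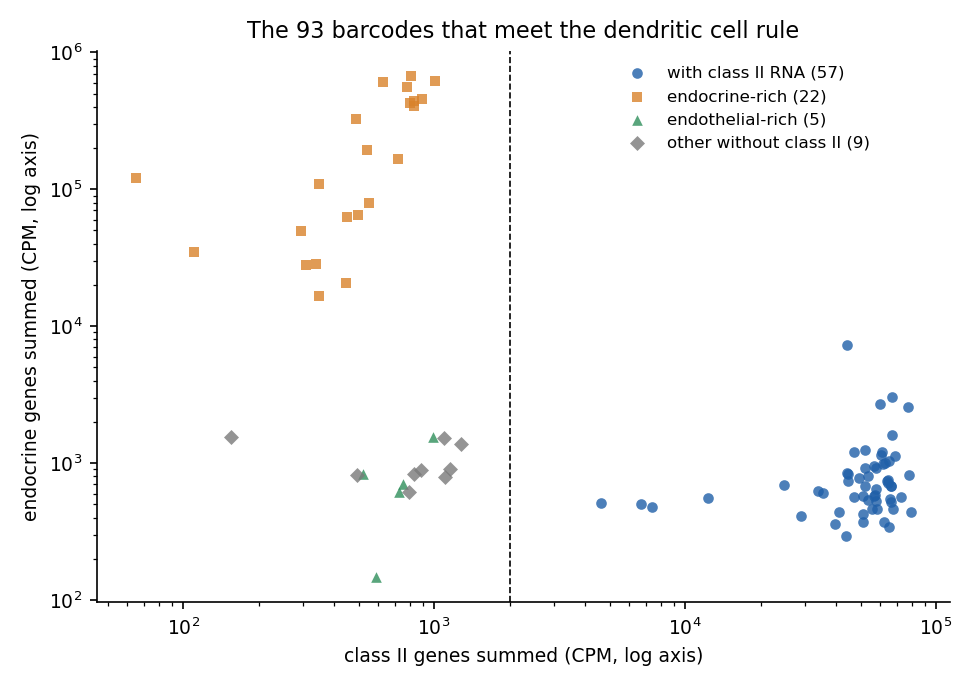
Each point is 1 of the 93 barcodes that met the rule, placed by the CPM of 18 class II genes (x) and of 13 endocrine genes (y), both on log axes. The 57 members to the right of the dashed line at 2000 CPM lie apart from the 36 to its left, 22 of which hold at least 16618 CPM of endocrine RNA.

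At the limit of 3 UMIs, 12 members had exactly 3 UMIs of the 7 genes, 2 of them with class II RNA, and 14 had 4, none with class II RNA. Just outside, 14 cells had 2 UMIs, 6 of them with class II RNA. On the side of the C1q limit, the highest member had 1399 CPM and the lowest cell outside that met every other part of the rule had 2394 CPM. Members with class II RNA thus mostly lay above 6 UMIs of the 7 genes, and those without mostly at 6 or fewer.

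The genes of the rule, whose values chose the cells, were spread unevenly over the 57, with a UMI of Cd209a in 31, of Clec9a in 17 and of Xcr1 in 16. Flt3, the receptor for the growth factor that maintains dendritic cells (chromosome 5, 147330741 to 147400489 in GRCm38.p6), stood at 137 CPM in these members, against 1.43 CPM in macrophages. It had a UMI in 40 of the 57, in 27 of 1699 macrophages and in 0 of 72 T cells, a count of 0 that allows up to 4.17% of T cells with a UMI at their depth (3 of 72). With each cell thinned to 5000 UMIs the shares were 42.1% of the 57 and 0.765% of macrophages. Zbtb46, a transcription factor of the conventional lineage (chromosome 2, 181371009 to 181493262), had 175 against 7.54 CPM. The chemokine receptor gene Ccr7 (chromosome 11, 99144199 to 99155077) had 0 to 91 UMIs per cell with a median of 5, and 495 against 19.4 CPM. Ccr7 and Dpp4 were also counted in T cells, at 145 and 116 CPM.

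Dendritic cell genes outside the rule were higher in the same cells than in macrophages. The list of 26 dendritic cell genes left 16 to count beside the rule genes, class II genes and genes under 50 UMIs. Of these, 14 of the 16 were at least 2-fold higher than in macrophages, with a median log2 ratio of 5.24 beside 0.17 over all 11313 genes counted. Of all genes counted, 13.9% were at least 2-fold higher and 14.0% at least 2-fold lower. Summed with the rule's genes, the list stood at 4087 CPM in the 57, 569 CPM in macrophages and 1488 CPM in T cells. It stood at 2799 CPM in the 9 members without class II RNA that were neither endocrine-rich nor endothelial-rich. Ly75, the uptake receptor DEC-205, had 394 against 4.17 CPM, Btla, an inhibitory receptor, 201 against 1.64 CPM, and Timd4, a receptor for phosphatidylserine on dying cells, 248 against 6.11 CPM. These 3 were not spread evenly: Ly75 had a UMI in 24 of the 57 and at most 85 UMIs in 1 cell, Btla in 27 and Timd4 in 18. Kit, the receptor for stem cell factor, was in 38 of the 57 at 138 against 1.32 CPM (104-fold, 76.2 to 145). Ly75, Btla and Timd4 each had no UMI in more of the 57 than had one. Outside the list, the rule for naming genes put the killer cell lectin receptor genes Klrd1 (204 against 1.37 CPM; 39 of 57 cells) and Klri1 (145 against 1.59 CPM) and the serotonin receptor gene Htr7 (191 against 2.13 CPM) among the 15 with the largest lower bounds. The T cell list without Cd3e, which the rule used, stood at 45.7 CPM in the 57, 6.84 CPM in macrophages and 3880.3 CPM in T cells, and the natural killer and innate lymphoid list, which reached 2483 CPM in 1 member, at 618, 629 and 2035 CPM.

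Among the 57, 16 carried at least 2 UMIs of Xcr1 and Clec9a together, 25 carried at least 2 UMIs of Cd209a, and 1 more met both limits and is counted with neither. Ccr7 with at least 2 UMIs was found in 35 of the 57, which were 20 Cd209a-marked cells, 4 Xcr1- or Clec9a-marked cells and 11 with neither mark. Ccr7 was carried by 4 of the 16 Xcr1- or Clec9a-marked and by 20 of the 25 Cd209a-marked cells, a description only, since all these genes are part of the rule. Of the 4 cells with none of these marks, Flt3, Ly75, Btla and Timd4 had 0 UMIs in all 4, and Hmox1 stood at 3466 CPM and the macrophage gene list without C1q at 4194 CPM, above the 1519 CPM of the 57 together and below the 16126 CPM of macrophages. The map of gene levels shows these subsets side by side.

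**Figure D2:**
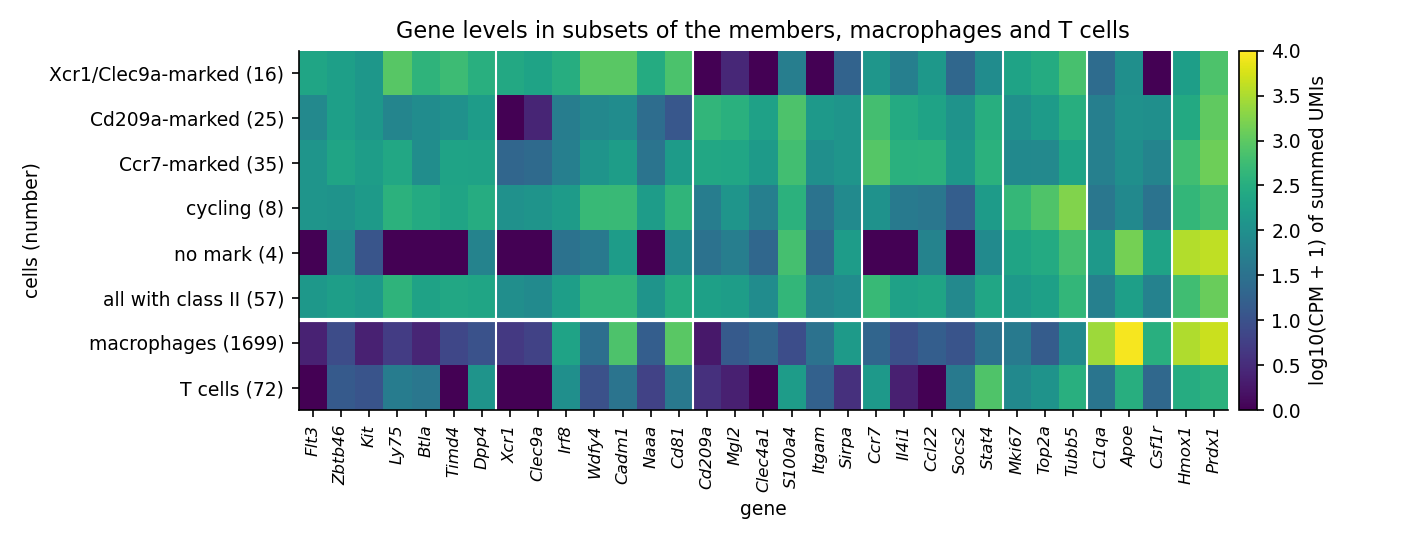
Colour gives log10(CPM + 1) of summed UMIs for 33 genes (columns) in subsets of the 57 members with class II RNA and in macrophages and T cells (rows, number of cells in brackets, a cell may stand in several rows). Xcr1, Clec9a and Cd81 are high in the row in which Cd209a, Mgl2 and Clec4a1 are at or near 0, and the 4 cells without a mark lack Flt3, Ly75, Btla and Timd4.

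The Xcr1- or Clec9a-marked cells differed from the Cd209a-marked cells along the lists of the 2 dendritic types, counted without the 3 marker genes. Of 3711 genes counted, 345 (9.30%) were at least 2-fold higher and 340 (9.16%) at least 2-fold lower in the 16 Xcr1- or Clec9a-marked cells. 11 of 12 counted cDC1 genes were higher and none lower, with a median log2 ratio of 3.45, and 6 of 9 counted cDC2 genes were lower, with a median of -2.84, beside 0.02 over all genes.

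Wdfy4, which dendritic cells need to present cell-associated antigen on class I, had 953 CPM in the Xcr1- or Clec9a-marked cells, against 73.5 CPM in the Cd209a-marked cells (13-fold, 9.59 to 17.9). Per cell it ranged from 142 to 2858 CPM with a median of 729 in the 16, and from 0 to 288 CPM with a median of 51.2 in the 25, so the groups overlap at their edges. The transcription factor gene Irf8 had 311 against 47.9 CPM and Id2 1179.7 against 238 CPM, in that order of groups. Cadm1, an adhesion molecule, stood at 937 against 87.8 CPM (10.7-fold, 8.08 to 14.4), and Naaa, a lipid amidase, at 284 against 25.6 CPM. Among the higher genes named by rule, the tetraspanin gene Cd81 came first, 743 against 11.2 CPM (66.4-fold, 32 to 166), with a UMI in 15 of 16 cells against 5 of 25. Gcsam had 105 CPM in 12 of the 16 and 0 UMIs in the 25 Cd209a-marked cells, which makes it at least 22-fold higher against a floor of 3 UMIs over that group. The cDC1 gene Batf3 did not reach 50 UMIs, with 11.6 CPM over the 57 members, and is not counted.

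Receptors for uptake and dead cells were divided between the subsets. Of 15 counted uptake receptors 4 were higher and 9 lower in the Xcr1- or Clec9a-marked cells. Ly75 had 927 against 65.5 CPM (14.2-fold, 10.3 to 20.0), Timd4 544 against 104 CPM and Cd36, a scavenger receptor, 246 against 38.3 CPM, all higher in the Xcr1- or Clec9a-marked cells. The lectin gene Mgl2 had 1.76 CPM in these cells, against 348 CPM in Cd209a-marked cells (ratio 0.00504, 0.000127 to 0.0284), and Clec4a1 0 UMIs, against 193 CPM. Itgam, the CD11b chain, and Csf1r, the receptor for CSF-1, had 0 UMIs in the 16 Xcr1- or Clec9a-marked cells and 137 and 95.8 CPM in the 25 Cd209a-marked cells. The oxidase with which phagocytes make superoxide was also lower in the Xcr1- or Clec9a-marked cells: Cybb, its catalytic subunit, had 38.6 against 499.8 CPM, and 4 of 7 genes of the superoxide list were lower in the Xcr1- or Clec9a-marked cells and none higher.

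Antigen presentation genes also differed in part. Of 24 class I presentation genes 4 were higher in the Xcr1- or Clec9a-marked cells, the peptide transporter gene Tap2 (223 against 46.3 CPM) among them, and none lower. Of 15 class II genes 4 were lower, such as the protease gene Ctss (683 against 2360.2 CPM) and Ifi30 (525 against 1487 CPM), while March1, a ligase that removes class II from the surface, was higher (384 against 39.9 CPM; 1 cell held 32.9% of its UMIs in the higher group). The class II list as a whole stood at 44632 CPM, against 59971 CPM. Chemokine genes were mostly low in the Xcr1- or Clec9a-marked cells (6 of 10 lower): Ccl17, a CCR4 ligand, had 0 UMIs there and 99 CPM in Cd209a-marked cells, whereas Cxcl9, a CXCR3 ligand, had 495 against 62.3 CPM. Il1b had 1157 against 4438 CPM and Il1rn, its receptor antagonist, 3.51 against 182 CPM. The groups also differ in Ccr7, marked in 4 of the 16 and 20 of the 25. Its part in the differences was not tested. In the 5 Cd209a-marked cells without Ccr7, Il1rn had 8.22 CPM, Clec4a1 41.1 CPM and Ccl17 49.3 CPM. The 20 with Ccr7 had 224, 230 and 111 CPM. Wdfy4 and Cadm1 were within 2-fold, at 65.7 and 123 CPM without Ccr7, against 75.3 and 79.3 CPM with it. The macrophage gene list without C1q overlapped between the subsets, with a median per cell of 1071 CPM (284 to 3628) in the Xcr1- or Clec9a-marked cells, against 1278 CPM (762 to 3754) in the Cd209a-marked cells. The monocyte list was lower in the Xcr1- or Clec9a-marked cells, at 323 against 1384 CPM, and so was the natural killer and innate lymphoid list, at 274 against 896 CPM. Their part in the differences was not tested.

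Ccr7-marked members carried more of the genes of mature, migrating dendritic cells. Of 4533 genes counted, 260 (5.74%) were at least 2-fold higher and 294 (6.49%) at least 2-fold lower in the 35 Ccr7-marked members than in the other 22. 11 of 24 counted migratory genes were higher and none lower, with a median log2 ratio of 0.92 beside -0.05 over all genes. Among all 93 members 1173 (16.7%) of 7033 genes were higher and 1424 (20.2%) lower, 36.9% in all, with 3 of the 36 members without class II RNA in the Ccr7-marked group, and 23 of 27 migratory and 29 of 36 interferon response genes were higher.

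Il4i1, an oxidase that breaks down phenylalanine and tryptophan, had 347 CPM in the Ccr7-marked members, against 9.98 CPM in the others (34.8-fold, 16.7 to 87.2), with a UMI in 27 of 35 cells against 3 of 22. The CCR4 ligand gene Ccl22 had 356 against 47 CPM (7.57-fold, 5.28 to 11.2) and Ccl5 486 against 20.0 CPM. Per cell Il4i1 ranged from 0 to 2154 CPM with a median of 201 in Ccr7-marked members, and from 0 to 209 CPM with a median of 0 in the others. Socs2, a cytokine signalling inhibitor, had 128 against 12.8 CPM, with 28.4% of its UMIs in 1 Ccr7-marked cell, and the transcription factor gene Stat4 352 against 88.4 CPM. Il12b, the p40 chain of interleukin 12, had 99.6 against 12.8 CPM, but 1 cell held 49.4% of its UMIs in the higher group and it was in 4 of 35 cells. Fscn1, a bundler of actin often used to mark mature dendritic cells, had a UMI in 2 of the 57 members.

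Genes of the cDC1 list and of the cell cycle were among those lower in the Ccr7-marked members. Without any gene of the rule, 259 (5.73%) of 4524 genes were higher and 292 (6.45%) lower. Counted in this way, 11 of 12 cDC1 genes were lower, with Irf8 at 52.7 against 318 CPM and Wdfy4 at 115 against 761 CPM, as were 7 of 14 G2 and M phase genes, and 8 of 11 cDC2 genes were higher. A member without Ccr7 had to reach the gene minimum with the other 6 genes of the rule, Xcr1, Clec9a and Cd209a among them. The groups differ in makeup, with 4 of 35 Ccr7-marked but 12 of 22 other members Xcr1- or Clec9a-marked. Within Cd209a-marked cells alone, a comparison added after the data had been seen, 20 with Ccr7 and 5 without, 218 (10.3%) of 2121 genes outside the rule were higher and 56 (2.64%) lower. There 11 of 22 migratory genes were higher and none lower, 1 of 7 cDC2 genes was higher, and of 3 cDC1 genes 1 was higher and none lower. There Il4i1 had 337 against 49.3 CPM (6.84-fold, 3.08 to 18.9), Ccl22 256 against 24.6 CPM (10.4-fold, 3.47 to 51), Ccl5 272 against 24.6 CPM (11-fold, 3.69 to 54.1) and Socs2 135 against 24.6 CPM (5.47-fold, 1.79 to 27.2). Stat4 had 361 against 181 CPM and did not reach 2-fold. With cycling cells left out of the 35 and the 22, 211 (5.65%) of 3733 genes outside the rule were higher and 182 (4.88%) lower, and 10 of 24 migratory genes were higher, 10 of 11 cDC1 genes lower and 7 of 11 cDC2 genes higher.

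Chemokine, cytokine and interferon response genes were higher in part in Ccr7-marked members. 6 of 10 counted chemokines were higher and none lower, with Cxcl10 at 1653 against 442 CPM, and so were 4 of 6 cytokines, with Il1rn at 226 against 28.5 CPM (7.93-fold, 5.00 to 13.3) and Il1b at 3339 against 1624 CPM. 12 of 32 interferon response genes were higher and 1 lower, such as Ifit1 (376 against 78.4 CPM; 15 of 35 cells against 7 of 22, with 22.4% of its UMIs in 1 Ccr7-marked cell). Per cell the summed interferon list did not follow the sums at its middle, with a median of 2878 CPM in Ccr7-marked and 3082 CPM in other members, and with highest cells of 71967 and 32181 CPM. Within Cd209a-marked cells alone, 3 of 24 interferon response genes were higher and 1 lower, with Ifit1 at 365 against 337 CPM (1.08-fold, 0.768 to 1.56), Isg15 at 307 against 477 CPM (ratio 0.645, 0.474 to 0.888) and Cxcl10 at 1049 against 707 CPM (1.48-fold, 1.18 to 1.89), and 5 of 9 chemokines were higher and 1 lower. Of the 5 Cd209a-marked cells without Ccr7, the highest had 32181 CPM of the summed interferon list and the others 742 to 7688 CPM. The interferon levels of these 5 therefore rest largely on 1 cell. With cycling cells left out, 7 of 32 interferon response genes were higher and 1 lower. Cyclin genes differed in opposite directions: Ccnd2 had 478 against 58.4 CPM (8.18-fold, 5.93 to 11.6) and Ccnd1 94.9 against 194 CPM.

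Cycling cells made up a larger share of the members with class II RNA than of macrophages. With at least 500 CPM of 12 genes of DNA replication and mitosis, Mki67 and Top2a among them, 8 of the 57 were cycling (14%, 6.26 to 25.8%), against 33 of 1699 macrophages (1.94%, 1.34 to 2.72%), a ratio of shares of 7.23 (2.88 to 16). For all 93 members the share was 9 of 93 (9.68%, 4.52 to 17.6%) and the ratio 4.98 (2.10 to 10.6). With every cell thinned to 5000 UMIs, 8 of the 57 and 41 of 1699 macrophages (2.41%) passed. The limit cuts a range: of the 57, 8 cells lay between 200 and 500 CPM, 2 between 500 and 1000 CPM, 6 above 1000 CPM and 18 at 0. Of the 8 cycling members, 4 were Xcr1- or Clec9a-marked, 3 Cd209a-marked and 1 neither. This last cell also lacked the Ccr7 mark and is 1 of the 4 members without any mark described above. Cycling made up 4 of 16 Xcr1- or Clec9a-marked cells (25%, 7.27 to 52.4%) and 3 of 25 Cd209a-marked cells (12%, 2.55 to 31.2%), intervals that overlap, and 2 of the 8 cycling members were Ccr7-marked.

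Genes of DNA replication and of mitosis outside the 12 were higher together in the cycling members. Of 4531 genes counted, 346 (7.64%) were at least 2-fold higher and 395 (8.72%) at least 2-fold lower in the 8 cycling members than in the other 49. 11 of 12 counted S phase genes and 12 of 14 counted G2 and M phase genes were higher and none lower, with median log2 ratios of 2.55 and 2.76 beside 0.06 over all genes. Among all 93 members 1014 (14.4%) of 7030 genes were higher and 1192 (17.0%) lower, 31.4% in all, with 15 of 15 S phase and 14 of 16 G2 and M phase genes higher. The ribonucleotide reductase gene Rrm1, which supplies DNA building blocks, had 142 against 2.48 CPM (57.4-fold, 18.5 to 288), Pcna, the sliding clamp of DNA polymerase, 241 against 66.9 CPM, and the helicase subunit gene Mcm7 159.8 against 16.5 CPM. Stmn1, a microtubule regulator, had 688 against 9.91 CPM (69.4-fold, 39 to 136), and the tubulin gene Tubb5 1775 against 63.6 CPM (27.9-fold, 22 to 35.8), each with a UMI in 7 of the 8 cells. The 12 genes that chose these cells are themselves of DNA replication and mitosis, and no single cell was assigned to a phase.

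Of the dendritic cell genes outside the rule, most were within 2-fold in the cycling members, and several migratory genes were lower. Without any gene of the rule, 346 (7.65%) of 4521 genes were higher and 391 (8.65%) lower, and of 17 dendritic cell genes 1 was higher and 3 lower. Kit had 148 against 135 CPM, with a UMI in 7 of the 8 cycling members, and Ly75 372 against 401 CPM, while 1 cycling member had 0 UMIs of Ly75, Btla, Timd4, Flt3 and Zbtb46. Of 24 migratory genes 9 were at least 2-fold lower and none higher: Il4i1 had 43.6 against 238 CPM (ratio 0.183, 0.101 to 0.307) and Cd274, the inhibitory ligand PD-L1, 131 against 444 CPM. The cyclin gene Ccnd2 had 66.8 against 352 CPM. Cycling members had more RNA, a median of 39960 UMIs per cell against 23482 in the others, so CPM and not UMIs is compared here. Among all 93 members 8 migratory genes were lower and 4 higher of 28. The macrophage list without C1q stood at 1168 CPM in cycling and 1618 CPM in other members.

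Interferon response genes were the largest listed group lower in cycling members: 28 of 32 counted were at least 2-fold lower and none higher, with a median log2 ratio of -2.94. Ifit2, an RNA-binding protein induced by interferon, had 0 UMIs in the 8 cycling members and 538 CPM in 17 of the other 49 (ratio at most 0.0162), Rsad2, the antiviral enzyme viperin, 5.81 against 494 CPM, and Isg15, a ubiquitin-like protein, 11.6 against 323 CPM. Over the 38 genes each cycling member had 742 to 4154 CPM, with a median of 1773, and each other member 770 to 71967 CPM, with a median of 3546. Of the other 49, 23 were above the highest cycling member and 26 were not, so the groups overlap, and 5 cells held 43.0% of the interferon UMIs of the 49. Among all 93 members 11 interferon response genes were lower and 2 higher of 36, with a median log2 ratio of -0.50, and the cycling member outside the 57, an endothelial-rich one, had 24472 CPM of the list. The plot of cycling against interferon genes shows that no cycling member of the 57 lay in the upper range. The difference rests on 8 cells, and on the highest of the others.

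**Figure D3:**
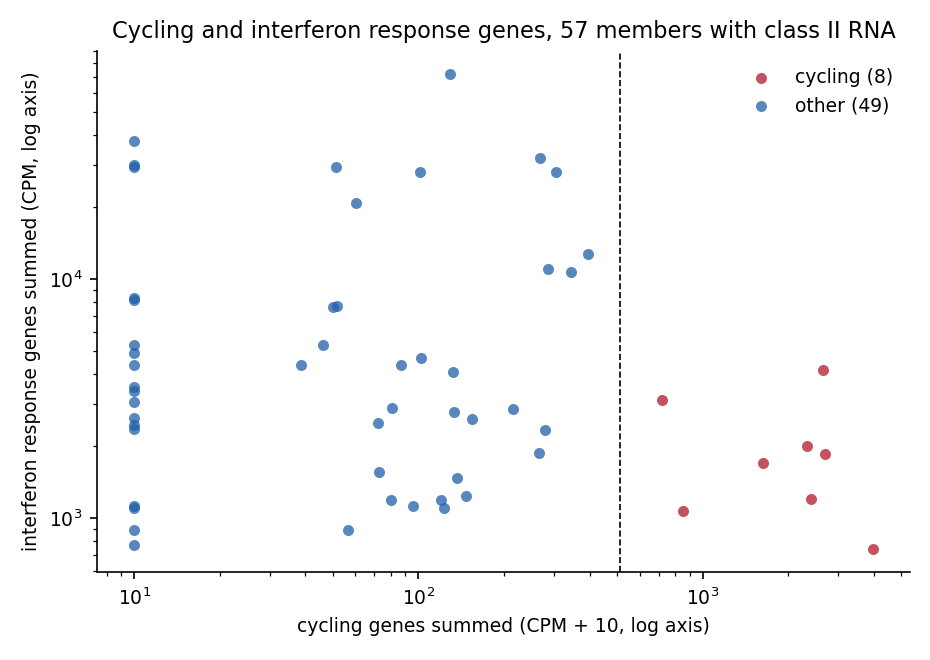
Each point is 1 of the 57 members with class II RNA, placed by the CPM of 12 cycling genes plus 10 (x) and of 38 interferon response genes (y), both on log axes, with the limit of 500 CPM dashed. The 8 cycling members lie at or below 4154 CPM of interferon genes, whereas 23 of the 49 others lie above.

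Against macrophages, the members with class II RNA had more of the genes of adhesion, the cytoskeleton and migration. They had less of the genes of scavenging, lipid, lysosome, chemokine and NRF2 target lists. Of 11313 genes, 1570 (13.9%) were at least 2-fold higher and 1582 (14.0%) at least 2-fold lower, shares to set beside the counts of each list below. With ratios taken relative to the median gene, which lay at a log2 ratio of 0.17, 1231 were higher and 1888 lower. For all 93 members 2605 (21.8%) of 11967 genes were higher and 1534 (12.8%) lower, and the 15 named by rule there included Cacna2d1, a calcium channel subunit, Meg3, and Abcc8, a subunit of the beta cell potassium channel (118 against 0.754 CPM). The median log2 ratio over all genes there was 0.19. The plot of listed genes gives the ratios list by list.

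**Figure D4:**
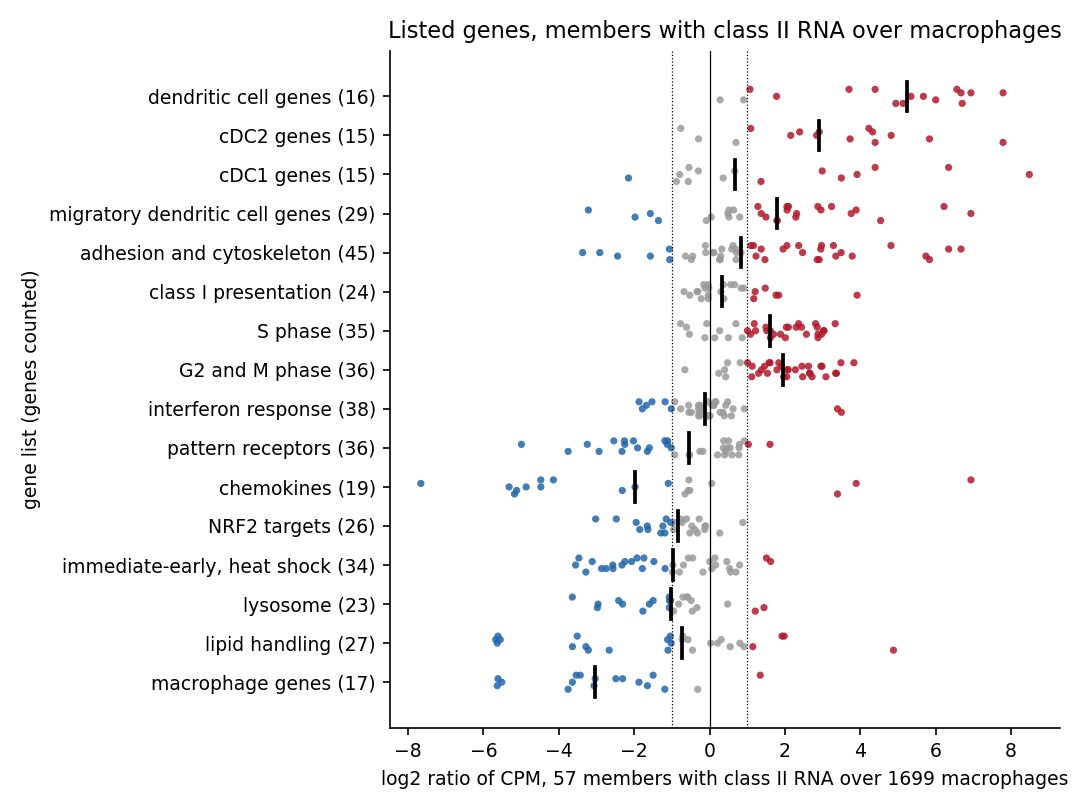
Each point is a gene of the list named at the left, placed by the log2 ratio of its CPM in the 57 members with class II RNA over that in 1699 macrophages, with genes at least 2-fold higher in red, at least 2-fold lower in blue and the list's median as a black bar. The median is 5.24 for dendritic cell genes and -3.03 for macrophage genes, and no NRF2 target is at least 2-fold higher.

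Presentation genes of class I and ligands for T cells were higher in part. The class II genes themselves chose these 57 and are given as levels: over the list the 57 held 51017 CPM and macrophages 64623 CPM, and H2-Aa had 10883 against 11409 CPM. Of 24 class I presentation genes none was lower and 6 were at least 2-fold higher, such as Tap1 (176 against 49.4 CPM) and the immunoproteasome gene Psmb9 (231 against 68 CPM). Of 13 costimulation genes 3 were higher and 1 lower, with a median log2 ratio of 0.04. Cd80 had 399 against 29.5 CPM (13.5-fold, 12.3 to 15), whereas Cd86, the other ligand of CD28, had 898 against 870.5 CPM. Of 20 counted genes of coinhibition and tolerance 7 were higher and 7 lower, with a median log2 ratio of -0.03. The inhibitory ligand genes Pdcd1lg2 (PD-L2, 96.5 against 1.29 CPM) and Cd274 (PD-L1, 374 against 108 CPM) were among the higher ones.

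Uptake receptors differed in kind. Of 30 counted 8 were at least 2-fold higher, such as the galactose-binding lectin gene Clec10a (33.4 against 1.18 CPM), the sialic acid receptor gene Siglecg (97.8 against 1.86 CPM) and Olr1, of which 1 cell held 66.7% of the UMIs. 13 were lower, the Fc receptor genes Fcgr1 (27.7 against 62.9 CPM), Fcgr3 (21.2 against 178 CPM) and Fcgr4 (8.36 against 117 CPM) and the scavenger receptor gene Cd36 (118 against 744 CPM) among them. Of 16 tetraspanin genes 3 were higher and 5 lower, beside 13.9% and 14.0% of all genes. Tspan3 (161 against 23.2 CPM) was among the higher and Cd63, a marker of late endosomes (132 against 1224 CPM), among the lower.

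Migration genes were more often higher than lower. 22 of 45 genes of adhesion and the cytoskeleton were at least 2-fold higher and 6 lower, with a median log2 ratio of 0.84. S100a4, a calcium-binding protein of motile cells, had 446 against 7.80 CPM (57.2-fold, 49.8 to 65.8), the integrin chain genes Itgb7 108 against 7.83 CPM and Itgae 43.7 against 0.538 CPM, and Lsp1, an actin-binding protein of leukocytes, 1143 against 112 CPM. The gene of the P2Y family receptor P2ry10 had 170.5 against 4.84 CPM and Gpr183, the oxysterol receptor that positions dendritic cells, 273 against 56.2 CPM. Lower were the receptors of macrophages, with Cx3cr1 at 10.3 against 111 CPM, C5ar1, the complement C5a receptor, at 6.43 against 293 CPM and S1pr1 at 0 UMIs, against 75.1 CPM.

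Cell cycle genes were higher in the sum over the 57, with 25 of 35 counted S phase genes and 30 of 36 G2 and M phase genes reaching 2-fold and none 2-fold lower. With cycling cells left out of both classes, where 11.7% of 11182 genes were higher and 14.1% lower, 7 S phase genes were higher and 4 lower of 31, and 3 G2 and M phase genes higher and 3 lower of 25. The growth factor receptors and transcription factors differed in both directions. Csf2rb, the shared chain of the GM-CSF receptor, had 713 against 141 CPM (5.07-fold, 4.75 to 5.41), while Csf1r had 59.2 against 331 CPM. Among 30 transcription factor genes 9 were higher and 4 lower, beside 13.9% higher and 14.0% lower over all genes. Irf4 had 25.7 against 3.42 CPM and Etv3 953 against 268 CPM. Irf8, which both classes use, had 172 against 211 CPM.

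Chemokine and cytokine genes were more often lower than higher. 11 of 19 counted chemokines were at least 2-fold lower and 3 higher, and 9 of 21 cytokines were lower and 1 higher. Cxcl2, which draws neutrophils, had 161 against 3576 CPM (ratio 0.0450, 0.0396 to 0.0509), Ccl4 163 against 3621 CPM and Tnf 23.2 against 477 CPM, and Il10 had 0 UMIs in the 57 members, against 95.4 CPM. The 3 chemokines that were higher were Ccl17 (52.7 against 0.431 CPM), Ccl22 (217 against 14.6 CPM) and Cxcl9 (353 against 33.6 CPM; 1 cell held 34.4% of its UMIs among the members). Pattern recognition genes were lower in 16 of 36, such as the Toll-like receptor gene Tlr2 (39.9 against 378 CPM), and higher in 2. Interferon response genes were within 2-fold in the most part, with 6 of 38 lower, 2 higher and a median log2 ratio of -0.12. Over all genes 14.0% were lower and 13.9% higher. Of 34 immediate-early and heat-shock genes 16 were lower, Hspa1a at 149 against 1083 CPM among them, and 2 higher.

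Genes that NRF2 switches on, the antioxidant transcription factor encoded by Nfe2l2, were lower or within 2-fold. 11 of 26 counted targets were at least 2-fold lower and none higher, with a median log2 ratio of -0.83, and with cycling cells left out 11 were lower and 1 higher. Hmox1, heme oxygenase 1, had 596 CPM in the 57 members, against 3306 CPM in macrophages (ratio 0.180, 0.169 to 0.192), and 297 CPM in T cells. Per cell Hmox1 ranged from 0 to 8255 CPM with a median of 89.2 in the members, and from 0 to 20064 CPM with a median of 2041 in macrophages, so the classes overlap. Prdx1, a peroxidase, had 1223 against 4711 CPM (ratio 0.260, 0.248 to 0.272) and 368 CPM in T cells. The ferritin genes Fth1 and Ftl1 had 11348 against 27792 CPM and 4179 against 9265 CPM, and Srxn1, which repairs peroxiredoxins, 173 against 393 CPM. The regulators themselves were close, Nfe2l2 at 886 against 964 CPM and Keap1, its inhibitor, at 43.7 against 57.3 CPM. Per cell the list ranged from 6019.8 to 81619 CPM in the members and from 6205 to 117701 CPM in macrophages, with medians of 19007 and 52261 CPM, so the ranges overlap. The highest member was 1 of the 4 without any mark. Within the members the Xcr1- or Clec9a-marked cells had the lower median, 10201 against 20161 CPM in Cd209a-marked cells, although Gclc, which makes the glutathione precursor, was higher there (283 against 102 CPM). Of 20 other antioxidant genes 4 were lower than in macrophages, beside 14.0% of all genes, Sod2 at 118 against 373 CPM among them. Prdx6 was higher at 250.2 against 102 CPM, while the median log2 ratio of that list was 0.29, above 0.

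Macrophage genes other than C1q, which the rule did not use, were low in the members. Of these, 15 of 17 counted macrophage genes were at least 2-fold lower and 1, Dnase1l3, higher, with 43.2% of its UMIs in 1 member. Apoe had 183 against 8964 CPM (ratio 0.0205, 0.0181 to 0.0230) and stood at 323 CPM in T cells, Trem2 had 2.57 against 128 CPM and Mertk 0 UMIs, against 16.1 CPM. 12 of 23 lysosome genes were lower, with Ctsb at 487 against 2589 CPM and Ctsd at 41.2 against 324 CPM, as were 13 of 27 lipid genes, with Abca1, a cholesterol exporter, at 30.2 against 344 CPM. Free RNA was not subtracted, and its part in the low levels was not tested. Markers of other cells moved with the comparison in part. 6 of 8 counted monocyte genes were higher, the list summing to 984 CPM in the members (31.1 to 3886 per cell), against 82.1 CPM in macrophages. The B cell list summed to 86.8 CPM, against 115 CPM. The part of such cells in the ratios was not tested.

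The antibodies gave a readout that the rule did not use. Each carries a DNA tag that is counted in the antibody library, and the 15 bases of each tag are given, all in capitals since the whole tag identifies the antibody, because every value of this paragraph and the next counts them.
CD9 tag: TAGCAGTCACTCCTA
CD206 tag: TCAACTCGGTGTTGC

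Surface CD9, a tetraspanin, was higher in members with class II RNA than in macrophages at the median and not at the mean. These members had 12 to 5574 CD9 UMIs per cell with a median of 1637 (quartiles 424 and 2764), against a median of 648 (90 to 2412) in macrophages and 49.5 in T cells. The medians gave a ratio of 2.53, but the means, 1777 and 1819 UMIs, a ratio of 0.977 (0.971 to 0.983), and single macrophages reached 37469 UMIs. Per RNA UMI the ratio was 0.784. The direction of the difference therefore turns with the measure. For all 93 members the mean was 1197 UMIs, a ratio of 0.658 (0.654 to 0.662), and the median 478. The 22 endocrine-rich members had a median of 35.5 UMIs, below that of T cells. Among the 16 Xcr1- or Clec9a-marked cells CD9 had a median of 1875 UMIs (quartiles 1604 and 2312), and among the 25 Cd209a-marked cells 1070 (424 to 2475). Cycling members had a median of 2045.5 UMIs, against 1495 in the others. Per 1000 RNA UMIs the order turned in both pairs. Xcr1- or Clec9a-marked cells had 57.4 CD9 UMIs, against 67.7 in Cd209a-marked cells. Cycling members had 56.7, against 67.6 in the others. Cd9 mRNA stood at 639 CPM in Xcr1- or Clec9a-marked cells, 283 in Cd209a-marked cells, 218 in macrophages and 85.9 in T cells.

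CD206, the mannose receptor encoded by Mrc1, differed between the subsets. The 16 Xcr1- or Clec9a-marked cells had 0 to 6 CD206 UMIs with a median of 1, the level of T cells, and the 25 Cd209a-marked cells 1 to 120 with a median of 16, a ratio of means of 0.0585 (0.0372 to 0.0878). None of the 16 but 15 of the 25 had at least 10 UMIs, so the ranges overlap only at the low end. All 57 together had a mean of 15.9 and a median of 4 UMIs, against 25.2 and 9 in macrophages, a ratio of means of 0.633 (0.592 to 0.676), and all 93 members a mean of 10.2 and a ratio of 0.404 (0.379 to 0.431). A single macrophage with 6365 UMIs held 14.9% of the macrophages' CD206. Mrc1 mRNA was low throughout, at 10.5 CPM in Xcr1- or Clec9a-marked cells, 16 CPM in Cd209a-marked cells and 31.6 CPM in macrophages.

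**Figure D5:**
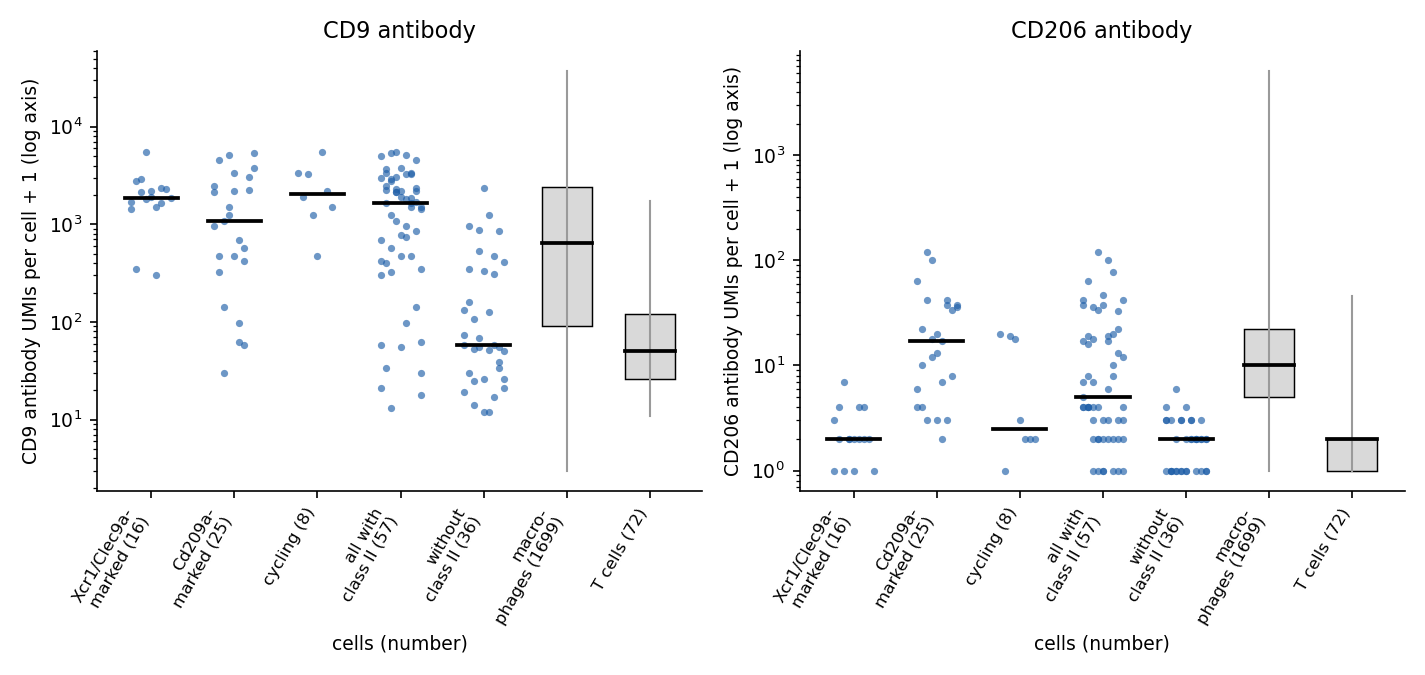
Antibody UMIs per cell plus 1 on log axes for CD9 (left) and CD206 (right); points are single members and black bars medians, and macrophages and T cells are drawn as quartile boxes with their full range as a line. The CD206 medians are 1 UMI in Xcr1- or Clec9a-marked and 16 UMIs in Cd209a-marked cells, and the CD9 medians 1875 and 1070 UMIs.

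A few of the 57 stood outside these subsets. The 4 without any mark had a median of 25 CD206 and 2044 CD9 UMIs, against 9 and 648 in macrophages. Their NRF2 targets stood at 63293 CPM, above the 23225 CPM of all 57. Macrophage genes without C1q ranged from 1529 to 11194 CPM per cell, and the dendritic cell list, rule genes included, summed to 1354 CPM, against 569 CPM in macrophages. These 4 stay in every result of the 57, 1 of them among the 8 cycling members. Whether they are dendritic cells was not tested. The cell that carried both marks had 75 UMIs of Siglech, 78 of Ccr9, 46 of Bst2, 90 of Tcf4 and 28 of Ly6d, genes of plasmacytoid dendritic cells, which make type I interferon and are not conventional dendritic cells, and held 94.9% of the Siglech UMIs of all 57. Its class II RNA was the lowest of the 57, at 4612 CPM, and it had 12 CD9 UMIs.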

How the data were processed

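The deposited matrix holds counts of UMIs for 32285 genes and 2 antibody tags in 2237 barcodes of 1 pooled sample. Its mRNA and antibody libraries are of the same cells. Per the file headers the authors made these counts with Cell Ranger 8.0.1, and mm10 is named in the submitters' processing notes. How barcodes were kept as cells is not stated in those sources. The labels' protocol names antibodies to CD9 and CD206, the design text only CD9, and both tags are in the matrix. Gene positions are from RefSeq in GRCm38.p6.

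For each class UMIs were summed and expressed as CPM, using Python 3.11.15, numpy 2.4.6, scipy 1.17.1 and pandas 2.3.3. Ratios have exact conditional binomial intervals and shares exact Clopper-Pearson intervals at 95%. A gene was counted with at least 50 UMIs in the 2 sums together, leaving out the genes that defined the classes, and called with a ratio of at least 2 or its inverse. A sum of 0 was set to a floor of 3 UMIs, which makes the ratio a bound. There were no replicates, so no p-value was computed and the intervals hold for these libraries, not for mice. The code was tested on simulated data. Scrublet, in scanpy 1.11.5, marked 14 of 2215 cells as doublets, none of them members, and none was removed.

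Any gene of the 42 lists could be named; beside these, the 15 higher and 15 lower genes of each comparison in the order of the interval bound nearest to 1, leaving out mitochondrial, ribosomal, endocrine and acinar genes and genes with 25% or more of their UMIs in 1 cell. The members and lists were chosen with earlier results of these data known, and the split by class II RNA and the counts without genes of the rule or without cycling cells were added after the values had been seen.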

Additional observations from a re-analysis of the deposited data

Results flagged for a closer look

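Signals of the rule's genes lay outside the members. Among macrophages, 167 cells met every other part of the rule, the gene sum of at least 3 UMIs included, and were left out by their C1q RNA. Since the gene sum chose these 167, their levels of the rule's genes are a description: Ccr7 had 650 UMIs in 107 cells, Zbtb46 169 UMIs in 65 cells and Flt3 37 UMIs in 12 cells. Timd4, outside the rule, had 201 UMIs in 6 of the cells. Their macrophage list, C1q included, stood at 21827 CPM, against 23385 CPM in the 1532 macrophages with a lower sum, and their median depth was 24900 against 20557 RNA UMIs.

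Class II RNA also lay in cells outside the members that were under the C1q limit. It was found in 49 cells that met the other limits but had fewer than 3 UMIs of the 7 genes. They held 2907 CPM of Lyz2, 3018 CPM of Apoe and 4079 CPM of Hmox1. Their macrophage list stood at 10536 CPM and their monocyte list at 2007 CPM, with a median of 17007 RNA UMIs. Their median level of C1q genes was 849 CPM, against 82.4 CPM in the 57 members with class II RNA. Another 44 cells met every part of the rule but the limit on Cd3e and Cd79a, and 15 of these 44 had class II RNA.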

How the results depend on the processing

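No paired analysis was possible because there was 1 pooled sample. The members' share of 4.20% became 3.02% with a gene sum of at least 5 UMIs, 2.57% with class II RNA of at least 2000 CPM and 2.39% at 20000 CPM. The CD9 ratio of members to macrophages, 0.658, was 0.817 with the gene sum of 5, 0.648 with C1q under 1000 CPM, 0.681 without the 40 highest doublet scores, 0.433 per RNA UMI, 0.738 of medians, 0.977 with class II RNA at 2000 CPM and 1.05 at 20000 CPM, where its direction turned. The CD206 ratio, 0.404, was 0.512 with the gene sum of 5, 0.342 with the stricter C1q limit, 0.266 per RNA UMI, 0.222 of medians, 0.633 with class II RNA at 2000 CPM and 0.677 at 20000 CPM, below 1 throughout. Of genes at least 2-fold apart, 4139 against macrophages became 6931 with no minimum and 2417 with at least 200 UMIs. In cycling against other members 2206 became 4016 with no minimum and 741 with class II RNA, in Ccr7-marked against others 2597 became 5099, 554, and 275 in Cd209a-marked cells alone, and in Xcr1- or Clec9a-marked against Cd209a-marked cells 685 became 2771 with no minimum. Scaled to the median gene, all members had 2233 higher and 1855 lower genes against macrophages, beside 2605 and 1534, and cycling members 615 higher of 2050, beside 1014 of 2206. With means over cells, cycling members had 570 higher of 1870, and Ccr7-marked members 585 of 2149, beside 1173 of 2597. Among members with class II RNA, cycling cells had 346 higher and 395 lower genes at the limit of 500 CPM, 190 and 201 at 200 CPM and 472 and 539 at 1000 CPM, and Ccr7-marked cells 211 and 184 without cycling cells, beside 260 and 294. The lower number of genes or cells counted is part of each alternative's construction; the cause of the other changes was not tested. Depth limits genes under 50 UMIs, and the 8 cycling members limit what can be seen of them.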
